A study of Mus musculus with 6 samples.

Results

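Elastic fibres are the stretchable part of the extracellular matrix, and 10 genes that encode their parts and their assembly factors were followed here: Eln, Fbn1, Fbn2, Fbln1, Fbln2, Fbln5, Efemp2, Mfap4, Mfap5 and Emilin1. They were chosen by name as a list of elastic fibre proteins and found by gene symbol in the deposited tables, where 20672 genes had a row in at least 1 count table. All 10 were listed in every table, and all 10 passed the filter on low counts that left 15856 genes for testing. They were measured by bulk RNA-seq in 6 libraries from mice. There were 2 from the infrapatellar fat pad (the fat cushion behind the patellar tendon), 2 from the Achilles tendon and 2 from the rectus femoris (a thigh muscle), and the title of the series concerns female mice and letrozole, an aromatase inhibitor.

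The titles of the fat pad libraries carry the drug's name and those of the other 4 libraries do not, while no label marks a library as treated or as a control, so tissue and drug cannot be told apart. Strain, age, dose and duration are not stated, and nothing says that 2 libraries of a tissue are 2 animals. The spread behind the p-values below is that among these libraries and may be technical. The fat pad is given as source and as tissue on every sample, and the tissues used here were taken from another label. All 6 libraries share 1 batch label, but the codes in their titles differ between the tissues, so sample handling and tissue cannot be told apart either.

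Total counts were 83132413 and 106319037 in the fat pad, 59042675 and 62063826 in the tendon and 56216295 and 58544836 in the muscle. Marker genes followed the tissues taken from that label: 8 adipocyte markers summed to 63138 and 70302 CPM (reads relative to library size) in the fat pad, against 484 to 2885 CPM in the other 4 libraries, and 8 tenocyte markers summed to 10675 and 14582 CPM in the tendon, against 786 to 1233 CPM in the muscle. The tendon libraries also held muscle RNA, with 8 fast-fibre markers at 10474 and 46564 CPM in tendon libraries 1 and 2 and at 220513 and 198064 CPM in the muscle. By contrast, 8 slow-fibre markers summed to 13340 and 6916 CPM in the tendon, against 138 and 182 CPM in the muscle. The deposited counts and the deposited TPM (transcript abundance scaled by length and library size) did not describe the libraries of a tissue alike. Across 14914 genes, the difference between library 1 and library 2 in counts followed that in TPM with a Spearman rho of 0.983 in the fat pad, against -0.283 in the tendon and -0.287 in the muscle. Neutrophil markers summed to 471 TPM in tendon library 2, where they summed to 1.02 CPM by counts. For the tendon and the muscle it cannot be told from the labels which deposited table holds the labelled library. Results below use the counts. The TPM result is given beside them for some members and lists, and as numbers of calls for each comparison.

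As background, tropoelastin, the soluble product of Eln, is laid onto a scaffold of microfibrils and cross-linked by lysyl oxidases into elastin. Microfibrils are polymers of fibrillins, to which microfibril-associated proteins bind, and fibulins bring tropoelastin and the cross-linking enzymes to them. In tendon, elastic fibres lie between collagen fascicles and around cells, in skeletal muscle they belong to the connective tissue sheaths and vessels, and in fat depots they run through the septa and vessel walls.

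Promoters of the members with an entry in the RefSeq promoter table are shown for a pair that was higher in fat pad than in muscle (Fbln5 and Efemp2) and for a pair that was lower (Fbn1 and Emilin1). Each window runs from 250 bases before to 50 bases after the annotated start, is written 5′ to 3′ on the gene's strand, and comes from RefSeq on GRCm38.p6, while the submitters' processing notes list GRCm39. Capitals mark matches, on either strand, to 4 motifs: the TATA box as TATAAA, the GC box as GGGCGG, the binding motif of Fos and Jun as TGANTCA (N is any base), and the CCAAT box.
Fbln5, the first of 2 starts, chr12:101819070-101819369, minus strand: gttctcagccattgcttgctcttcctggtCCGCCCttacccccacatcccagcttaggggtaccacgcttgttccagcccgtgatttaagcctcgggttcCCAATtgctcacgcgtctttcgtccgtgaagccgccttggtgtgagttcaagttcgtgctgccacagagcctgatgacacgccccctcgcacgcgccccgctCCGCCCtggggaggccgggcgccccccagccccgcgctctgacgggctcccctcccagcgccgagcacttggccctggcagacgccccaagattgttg
Efemp2, the first of 3 starts, chr19:5473696-5473995, plus strand: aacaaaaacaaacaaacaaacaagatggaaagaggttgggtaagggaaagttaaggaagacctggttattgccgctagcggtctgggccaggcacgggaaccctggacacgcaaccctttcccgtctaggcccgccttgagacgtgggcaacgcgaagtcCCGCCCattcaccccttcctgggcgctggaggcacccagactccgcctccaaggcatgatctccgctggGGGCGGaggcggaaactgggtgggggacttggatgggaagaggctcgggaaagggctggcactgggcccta
Fbn1, chr2:125506389-125506688, minus strand: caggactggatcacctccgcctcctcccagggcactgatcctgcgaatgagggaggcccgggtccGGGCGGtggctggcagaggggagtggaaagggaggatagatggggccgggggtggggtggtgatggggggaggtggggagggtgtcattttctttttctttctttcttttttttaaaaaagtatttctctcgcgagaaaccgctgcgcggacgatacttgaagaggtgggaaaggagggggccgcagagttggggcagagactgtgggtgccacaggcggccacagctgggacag
Emilin1, chr5:30913536-30913835, plus strand: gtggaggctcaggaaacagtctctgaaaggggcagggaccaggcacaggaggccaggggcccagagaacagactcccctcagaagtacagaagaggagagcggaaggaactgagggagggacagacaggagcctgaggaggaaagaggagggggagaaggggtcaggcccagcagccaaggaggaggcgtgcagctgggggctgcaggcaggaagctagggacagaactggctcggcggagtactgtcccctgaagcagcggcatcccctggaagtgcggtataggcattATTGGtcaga

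GGGCGG stood 2 times in the Fbln5 window, 2 times in the Efemp2 window, 1 time in the Fbn1 window and 0 times in the Emilin1 window, and 35.7% of 32841 promoter windows of the same length held it. CCAAT stood 1 time each in the Fbln5 and Emilin1 windows, against 37.4% of all windows. None of these 4 windows held TATAAA, which 13.6% of all windows did, or TGANTCA, which 7.8% did. The share of G and C was 65.7% for Fbln5, 60.3% for Efemp2, 60.3% for Fbn1 and 61.7% for Emilin1, against a median of 52.7% over all windows. Other starts of the same genes differed: the window of the other Fbln5 start had 48.7% G and C and 0 matches to GGGCGG or CCAAT, and those of the other 2 Efemp2 starts had 76.0% and 78.3% with 5 and 7 matches to GGGCGG. Fbln1 and Fbln2 also had windows in the table, so that 6 of the 10 members matched, and Eln, Mfap4 and Mfap5 had no entry there. No window is given for Fbn2, which lies on a chromosome whose sequences were not used here. The window of Fbln2, which was also lower in fat pad than in muscle, held 2 matches to GGGCGG, and the windows of the 2 Fbln1 starts held 0 and 2.

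The fat pad held little elastin and fibrillin message and much message for Fbln5 and Mfap5. In the fit of all genes, 3 of the 10 members were higher in fat pad than in rectus femoris (Fbln5, Efemp2 and Mfap5) and 5 were lower (Eln, Fbn1, Fbln2, Mfap4 and Emilin1), in a quasi-likelihood test by edgeR (p-values adjusted over all genes tested after Benjamini and Hochberg, threshold 0.05). Against the tendon, 2 members were higher in the fat pad (Fbln5 and Mfap5) and 7 were lower (Eln, Fbn1, Fbn2, Fbln1, Fbln2, Mfap4 and Emilin1). These counts stand beside a large background: in the fat pad over the muscle, 29.8% of all genes tested were called higher and 29.6% lower, and in the fat pad over the tendon, 27.2% were called higher and 31.4% lower. The median log2 fold change of the members was -0.86 in the fat pad over the muscle and -2.38 over the tendon, and the medians of all genes were 0.14 and -0.01. With total counts as the scaling, 65.0% of the genes called in the fat pad over the muscle were higher, against 50.2% with the scaling used here, and 4 members were higher and 4 lower. In these bulk samples, fewer cells of a type and less RNA per cell cannot be told apart. The comparisons of the fat pad share its 2 libraries, and all 3 comparisons share one estimate of the spread.

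**Figure D1:**
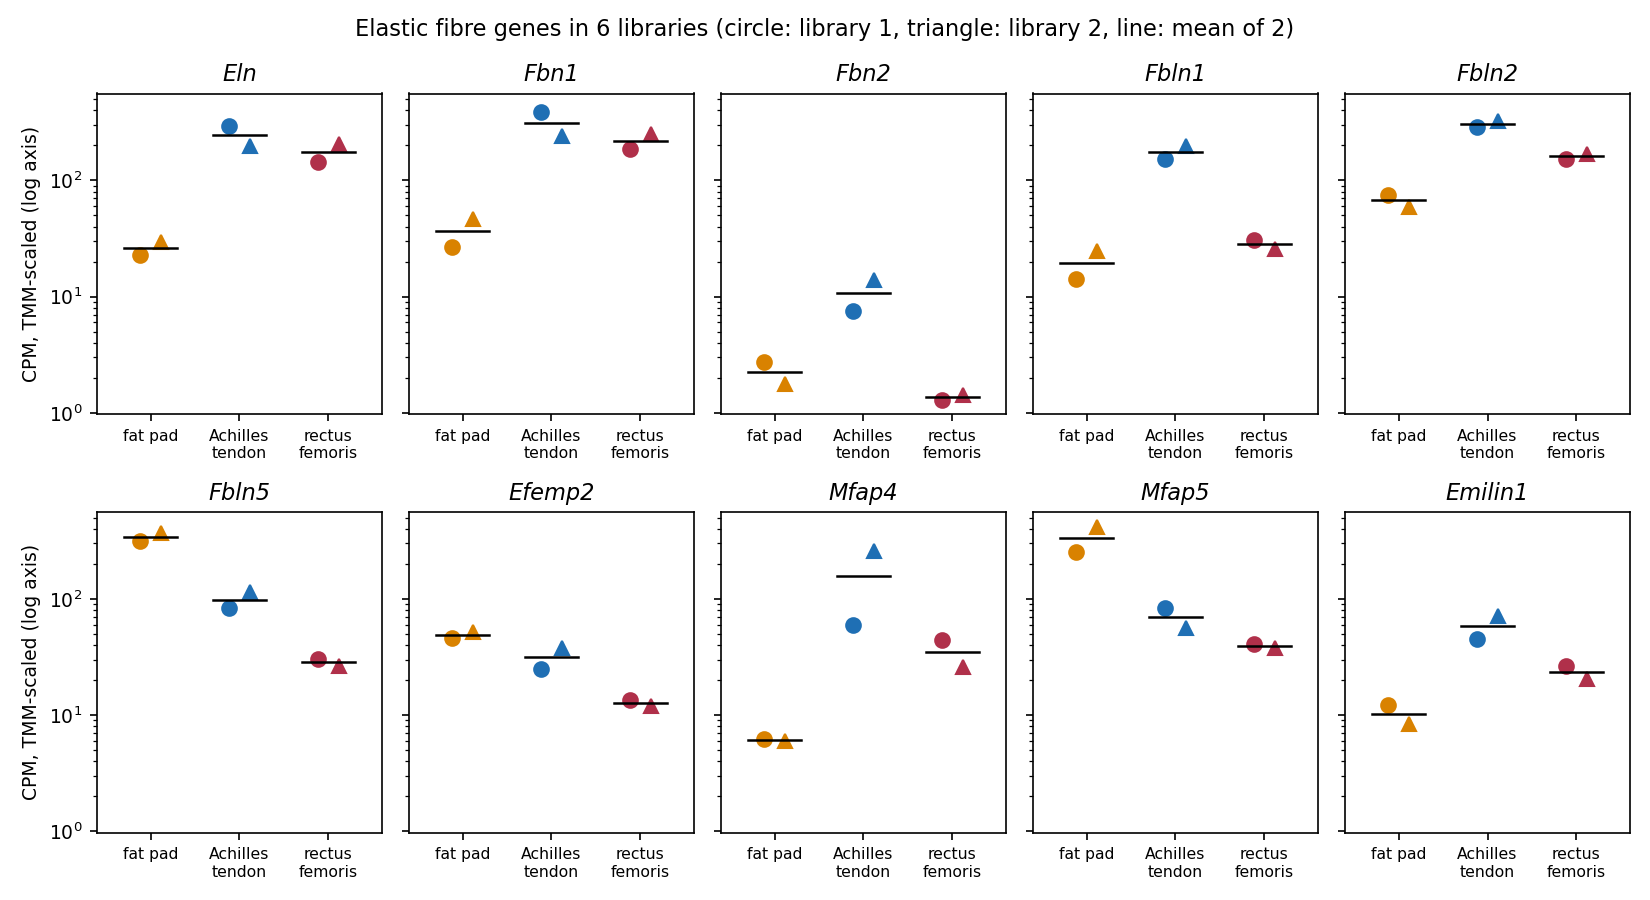
TMM-scaled CPM (log axis) of each of the 10 genes in the fat pad, the Achilles tendon and the rectus femoris, with library 1 as a circle, library 2 as a triangle and the mean as a line. Fbln5 and Mfap5 stand highest in the fat pad, while Eln and Fbn1 stand at 22.8 to 46.5 CPM in the fat pad and at 143 to 384 CPM in the other 4 libraries.

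Eln, which encodes tropoelastin, had 22.8 and 29.6 CPM in the fat pad (2059 and 3324 reads), against 293 and 196 CPM in the tendon (22729 and 14296 reads) and 143 and 204 CPM in the muscle (5840 and 9283 reads). Both fat pad libraries lay far below the other 4, and the tendon and muscle libraries overlapped. The means were 26.2 ± 4.80 CPM in the fat pad, 245 ± 68.1 CPM in the tendon and 174 ± 43.4 CPM in the muscle (SD, n = 2 libraries each, as for every mean below). The log2 fold change was -2.73 ± 0.31 (SE) in the fat pad over the muscle (edgeR adjusted p = 0.000362) and -3.22 ± 0.32 over the tendon (adjusted p = 0.000226). By the deposited TPM, Eln stood at 6.42 and 8.62 TPM in fat pad, 98.6 and 82.0 TPM in the tendon and 62.3 and 30.6 TPM in the muscle, so the fat pad was lowest there too.

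Fbn1 encodes the main fibrillin of microfibrils after birth. It had 26.8 and 46.5 CPM in the fat pad, against 384 and 241 CPM in the tendon and 185 and 252 CPM in the muscle. The pattern was that of Eln, with the fat pad apart and the other tissues overlapping. The log2 fold change was -2.57 ± 0.38 in the fat pad over the muscle (edgeR adjusted p = 0.00113) and -3.09 ± 0.39 over the tendon (adjusted p = 0.000574). Of the exonic bases of Fbn1, 20.1% are also covered by the antisense gene Gm9913 in GENCODE M21, and with no stated strand setting reads from the pair cannot be told apart.

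Fbn2, a fibrillin known mainly from development, was the lowest of the 10 in every tissue, with 2.73 and 1.77 CPM in the fat pad, 7.51 and 13.9 CPM in the tendon and 1.30 and 1.43 CPM in the muscle. Both tendon libraries lay above the other 4. The fat pad was lower than the tendon (log2 fold change -2.25 ± 0.44, edgeR adjusted p = 0.00421), while the difference from the muscle did not pass the test (0.72 ± 0.43, adjusted p = 0.19). With total counts as the scaling, which moved the median of all genes by 0.51, that value was 1.24 with an adjusted p of 0.038. The muscle values rest on 53 and 65 reads.

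Mfap5 encodes a small glycoprotein that binds fibrillins in microfibrils. It had 255 and 419 CPM in the fat pad, against 84.2 and 56 CPM in the tendon and 40.7 and 37.5 CPM in the muscle. Where Fbn1 was lowest in the fat pad, Mfap5 was highest there, with both fat pad libraries above all others. The mean was 337 ± 116 CPM in the fat pad, 70.1 ± 19.9 CPM in the tendon and 39.1 ± 2.29 CPM in the muscle, and the log2 fold change was 3.11 ± 0.33 over the muscle (edgeR adjusted p = 0.000282) and 2.26 ± 0.32 over the tendon (adjusted p = 0.00103).

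Mfap4 encodes a fibrinogen-related protein that binds tropoelastin and microfibrils. It had 6.23 and 6.03 CPM in the fat pad, against 59.9 and 257 CPM in the tendon and 44.4 and 25.8 CPM in the muscle. By counts the fat pad libraries were nearly equal and the tendon libraries were far apart. The deposited TPM had the tendon libraries nearly equal, at 71.1 and 70.2 TPM, with 5.04 and 5.05 TPM in the fat pad and 55.5 and 25.9 TPM in the muscle. The log2 fold change was -4.69 ± 0.71 in the fat pad over the tendon (edgeR adjusted p = 0.00132), the most negative of the 10, and -2.52 ± 0.64 over the muscle (adjusted p = 0.0133). Without tendon library 2 the value over the tendon was -3.30, less negative than those of Eln (-3.49) and Fbn1 (-3.40). The call against the muscle was lost without fat pad library 1 (adjusted p = 0.0783), fat pad library 2 (0.0825) or muscle library 1 (0.0591), with log2 fold changes of -2.51, -2.50 and -2.08.

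Among the fibulins, Fbln5, whose protein binds tropoelastin and the cross-linking enzyme Loxl1, had 313 and 368 CPM in the fat pad, against 83.6 and 114 CPM in the tendon and 30.6 and 26.4 CPM in the muscle. The 3 tissues did not overlap. The log2 fold change of 3.58 ± 0.26 over the muscle (edgeR adjusted p = 6.87e-05) was the highest of any member in any comparison, and that over the tendon was 1.79 ± 0.24 (adjusted p = 0.000773).

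Efemp2 encodes the fibulin that brings lysyl oxidase to tropoelastin. It had 46.3 and 51.7 CPM in the fat pad, against 24.9 and 38.0 CPM in the tendon and 13.5 and 11.9 CPM in the muscle. It was higher in fat pad than in muscle (log2 fold change 1.95 ± 0.25, edgeR adjusted p = 0.00059). The difference from the tendon was 0.64 ± 0.24 and missed the threshold (adjusted p = 0.0532), although the libraries did not overlap. That value passed with DESeq2's size factors (0.74, adjusted p = 0.0399), with DESeq2's Wald test (adjusted p = 0.0259) and without tendon library 2 (0.97, adjusted p = 0.0151), and was 0.17 by the deposited TPM.

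Fbln1 and Fbln2, unlike Fbln5, were lower in fat pad than in tendon. Fbln1, found in elastic fibres and basement membranes, had 14.1 and 24.7 CPM in the fat pad, against 154 and 198 CPM in the tendon and 30.5 and 25.7 CPM in the muscle. It was lower in fat pad than in tendon (log2 fold change -3.18 ± 0.32, edgeR adjusted p = 0.000237), and against the muscle it was -0.54 ± 0.29 with an adjusted p of 0.156. The comparison with the muscle passed without fat pad library 2 (-1.0, adjusted p = 0.0288) and by the deposited TPM (-1.27, adjusted p = 0.0093).

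Fbln2, which binds both fibrillin and tropoelastin, had 75.5 and 59.5 CPM in the fat pad, against 290 and 326 CPM in the tendon and 152 and 170 CPM in the muscle. Its 3 tissues did not overlap. The log2 fold change was -1.26 ± 0.22 in the fat pad over the muscle (edgeR adjusted p = 0.00242) and -2.19 ± 0.22 over the tendon (adjusted p = 0.00026).

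Emilin1, which encodes a glycoprotein at the border of elastin and microfibrils, had 12.2 and 8.33 CPM in the fat pad, against 45.2 and 71.3 CPM in the tendon and 26.7 and 20.3 CPM in the muscle. It was lower in fat pad than in tendon (log2 fold change -2.50 ± 0.32, edgeR adjusted p = 0.000612) and than in muscle (-1.19 ± 0.31, adjusted p = 0.0134). The call against the muscle was lost when fat pad library 2 (adjusted p = 0.0755) or muscle library 1 (0.0771) was left out and with total counts as the scaling (-0.67, adjusted p = 0.0718).

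The Achilles tendon had the highest mean level for 7 of the 10 members (Eln, Fbn1, Fbn2, Fbln1, Fbln2, Mfap4 and Emilin1). In the fit of all genes, 7 members were higher in the tendon than in muscle (Fbn2, Fbln1, Fbln2, Fbln5, Efemp2, Mfap4 and Emilin1) and 0 were lower, beside 13.3% of all genes called higher and 12.7% called lower. The median log2 fold change was 1.31 for the members and 0.10 for all genes. Fbn2 had 2.97 ± 0.46 (edgeR adjusted p = 0.00977) and Fbln1 had 2.64 ± 0.31 (adjusted p = 0.00566), the highest values, and Fbln5 had 1.79 ± 0.24 (adjusted p = 0.00741). Eln (0.49 ± 0.29, adjusted p = 0.246), Fbn1 (0.52 ± 0.36, adjusted p = 0.312) and Mfap5 (0.84 ± 0.31, adjusted p = 0.0863) did not pass, and the tendon and muscle libraries of Eln and Fbn1 overlapped. Mfap4 (2.17 ± 0.63, adjusted p = 0.0458) depended on tendon library 2: without it the log2 fold change was 0.78 and the adjusted p 0.126. Emilin1 also lost its call without that library (0.95, adjusted p = 0.0625).

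The calls in the tendon over the muscle, of all genes as of the members, rested on having both muscle libraries. Without either muscle library, the log2 fold change of Fbn2 stayed at 2.91 to 3.05 and that of Fbln1 at 2.54 to 2.78. With total counts as the scaling, which moved the median of all genes by 0.73, all 10 members were called higher. So were 5969 of the 15856 genes tested, and the split of calls over all genes was 93.7% higher, against 51.1% with the scaling used here. By the deposited TPM, 8 members were called higher, with Eln (1.02, adjusted p = 0.0345) and Mfap5 (1.39, adjusted p = 0.0106) added and Mfap4 (0.88, adjusted p = 0.0558) lost. TPM moved the median of all genes by 0.42 in this comparison, and called 4504 of 13647 genes higher and 540 lower. In the fat pad, the deposited TPM gave 3 members higher and 6 lower over the muscle, and 2 higher and 7 lower over the tendon. Of 13647 genes tested by TPM, 3030 were called higher and 5790 lower over the muscle. Over the tendon, 1608 were called higher and 7921 lower, so many genes beside the members were lower there.

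**Figure D2:**
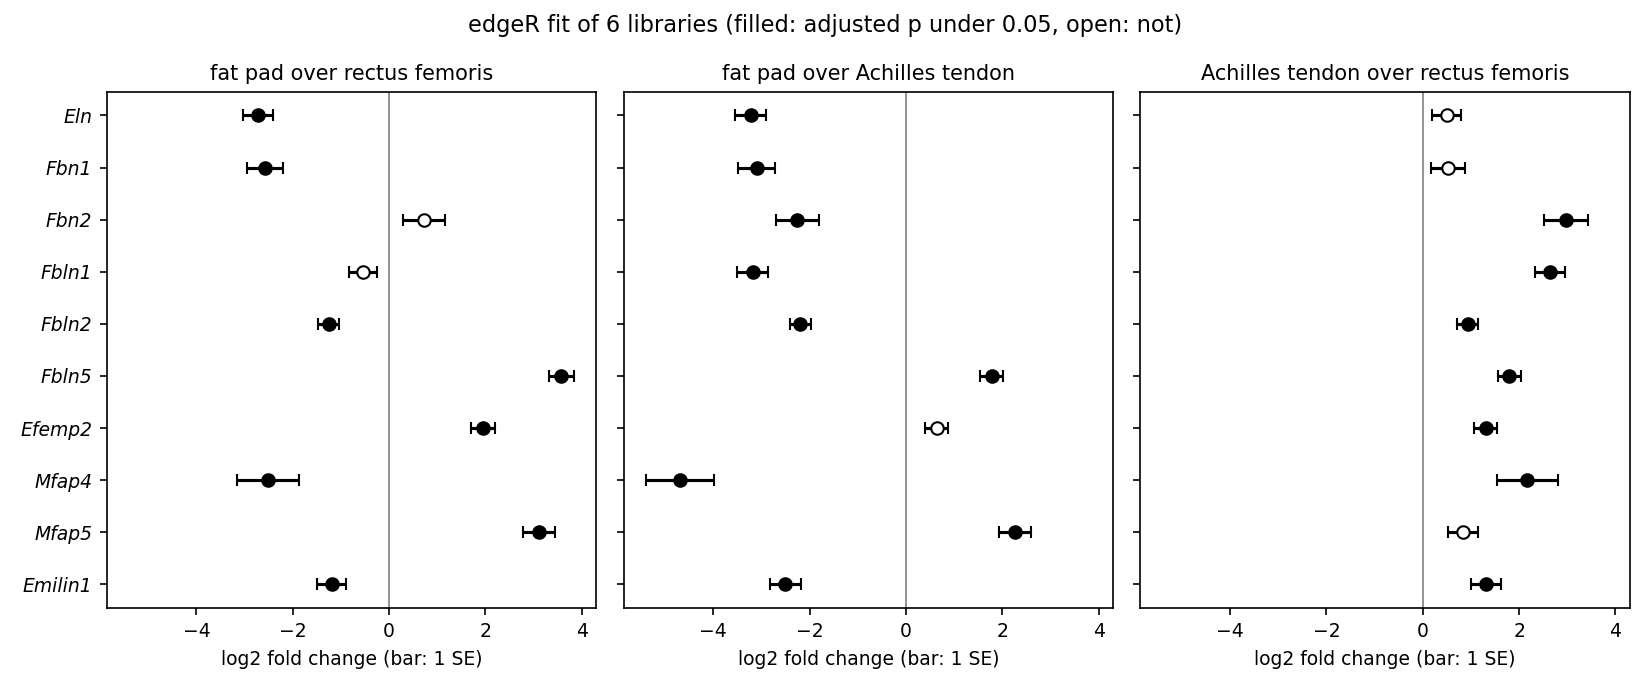
Log2 fold change with its SE for each of the 10 genes in the 3 comparisons, from the edgeR fit of all 6 libraries, with filled circles for an adjusted p under 0.05. Fbln5 and Mfap5 lie right of 0 in both comparisons of the fat pad, where Eln, Fbn1, Fbln2, Mfap4 and Emilin1 lie left of it, and no member lies left of 0 in the tendon over the muscle.

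Ratios between members within a library do not depend on how libraries are scaled. Fbln5 and Eln, Mfap5 and Fbn1, and Fbln5 and Fbln1 differed in direction in the fat pad above. Their ratios restate that and are no separate support. Fbln5 had 13.8 and 12.4 reads per read of Eln in the fat pad libraries, against 0.285 and 0.580 in the tendon and 0.214 and 0.129 in the muscle. Mfap5 had 9.51 and 9.0 reads per read of Fbn1 in the fat pad, against 0.219 and 0.232 in the tendon and 0.220 and 0.149 in the muscle. In both ratios the fat pad libraries lay above 1 and the other 4 below it, though a ratio of reads also depends on the lengths of the genes. The 95% counting intervals were narrow, from 13.2 to 14.4 for the first fat pad library and from 0.278 to 0.293 for the first tendon library in Fbln5 over Eln, and cover counting error only. The same ratios from the deposited TPM were 18.9 and 17.1 in the fat pad, 0.469 and 0.987 in the tendon and 0.354 and 0.520 in the muscle for Fbln5 over Eln, again above 1 in the fat pad and below it elsewhere. For Mfap5 over Fbn1 they were 32.1 and 30.4 in the fat pad and 0.437 and 0.865 in the muscle. In the tendon they were 0.993 and 0.868, so tendon library 1 lay close to 1.

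Fbn1 and Eln kept nearly 1 proportion by counts. Fbn1 had 1.18 and 1.57 reads per read of Eln in the fat pad, 1.31 and 1.23 in the tendon and 1.29 and 1.23 in the muscle, while the level of Eln ranged from 22.8 to 293 CPM. Per length, by the deposited TPM, the ratio was 0.680 and 0.909 in the fat pad, 0.668 and 1.15 in the tendon and 1.30 and 0.793 in the muscle. The fibrillin pair did not keep a proportion: Fbn1 over Fbn2 was 9.80 and 26.3 in the fat pad, 51.2 and 17.3 in the tendon and 143 and 176 in the muscle, so the muscle was highest and the other tissues overlapped. Fbln5 over Fbln1 was 22.2 and 14.9 in the fat pad, 0.543 and 0.577 in the tendon and 1.00 and 1.03 in the muscle. Fbln5 over Efemp2, the pair of fibulins that handle tropoelastin, varied less, at 6.76 and 7.11 in the fat pad, 3.36 and 3.00 in the tendon and 2.27 and 2.21 in the muscle. Fbln2 over Fbln1 did not set the fat pad apart from the muscle. It was 5.36 and 2.41 in the fat pad, 1.89 and 1.65 in the tendon and 5.00 and 6.60 in the muscle.

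**Figure D3:**
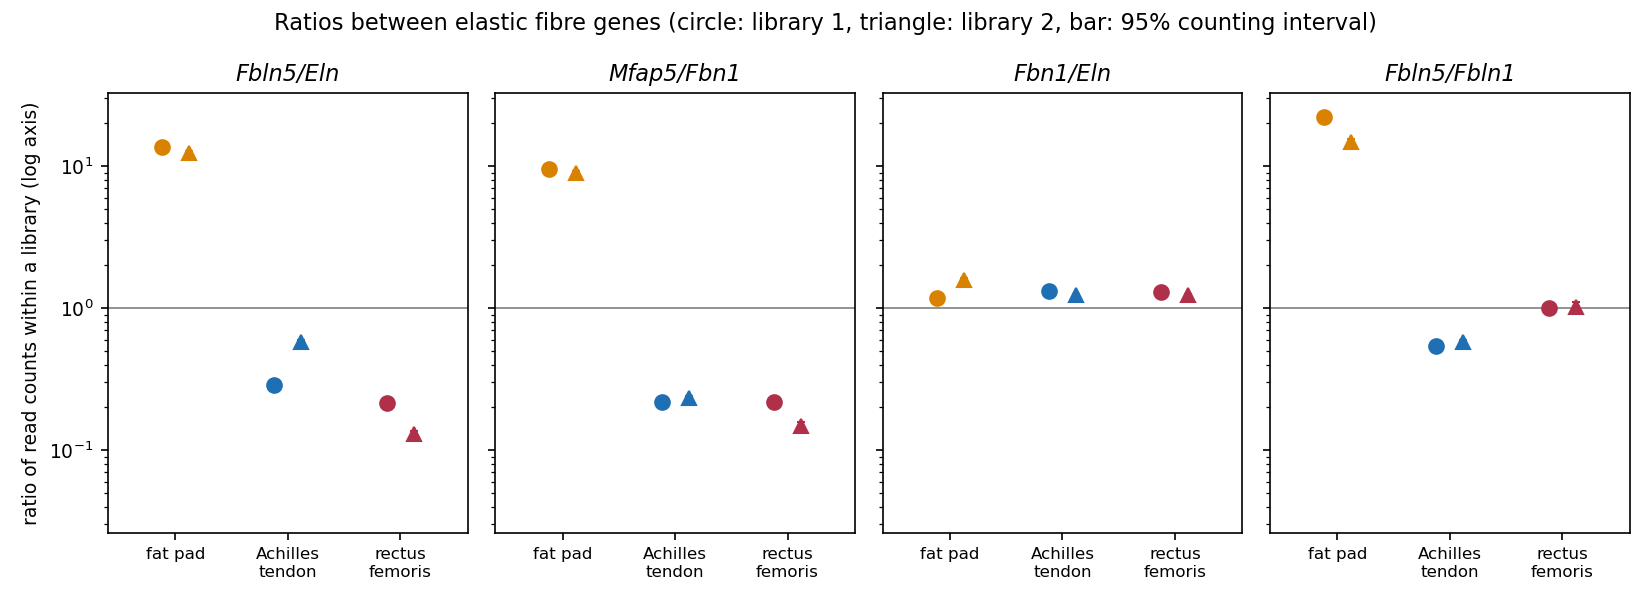
Ratio of read counts of 2 members within each library (log axis), by tissue, with the 95% counting interval as a bar that is mostly smaller than the symbol. Fbln5 over Eln, Mfap5 over Fbn1 and Fbln5 over Fbln1 stand at 9.0 or more in the fat pad, while Fbn1 over Eln stays between 1.18 and 1.57 in all 6 libraries.

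Per length, the mix of elastic fibre transcripts in the fat pad was led by Mfap5 and Fbln5. By the deposited TPM, Mfap5 made 43.6% and 52.5% and Fbln5 37.7% and 32.4% of the 10 members' summed TPM in the fat pad libraries, and Eln made 2.00% and 1.9%. In the tendon, Fbln1 (19.1% and 20.8%) and Fbln2 (19.2% and 18.6%) led, and Eln made 15.7% and 10.5%. In the muscle, Fbn1 (20.2% and 11.6%) and Fbln2 (20.1% and 25.5%) were nearly equal in library 1 and Fbln2 led in library 2, and Eln made 15.6% and 14.6%. In the fat pad, the order of mean levels began with Mfap5 (189 ± 69.5 TPM) and Fbln5 (134 ± 18.3 TPM). Their spreads overlap, but Mfap5 was higher in both libraries (140 against 121 TPM and 239 against 147 TPM). Then came Fbln2 (18.7 ± 2.71 TPM), followed by Fbln1, Efemp2, Eln, Fbn1, Mfap4, Emilin1 and Fbn2 (0.554 ± 0.155 TPM). Most of those after Fbln2 lie within 1 spread of a neighbour. CPM per kilobase of exon (GENCODE M21) put Mfap5 and Fbln5 first in the fat pad too, but ranked Efemp2 as number 3 there, and put Mfap4 first in the tendon (82.4 CPM per kilobase), ahead of Fbln2 (48.4). That place of Mfap4 rested on tendon library 2, since it had 31.2 and 134 CPM per kilobase in tendon libraries 1 and 2 and lay below Fbln2 (45.6) in library 1. Summed over the 10 members, TMM-scaled counts gave 775 and 1014 CPM in the fat pad, 1427 and 1511 CPM in the tendon and 668 and 775 CPM in the muscle. With that scaling the total was similar in the fat pad and the muscle although the mix was not. The TMM factors were 1.09 and 1.06 in the fat pad and 0.726 and 0.776 in the muscle. Relative to total counts, the fat pad sums (70019 and 114050 reads) lay above those of the muscle (27282 and 35195 reads). Summed TPM were 322 and 454 in the fat pad and 399 and 209 in the muscle. Sums of reads also weigh long genes more.

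**Figure D4:**
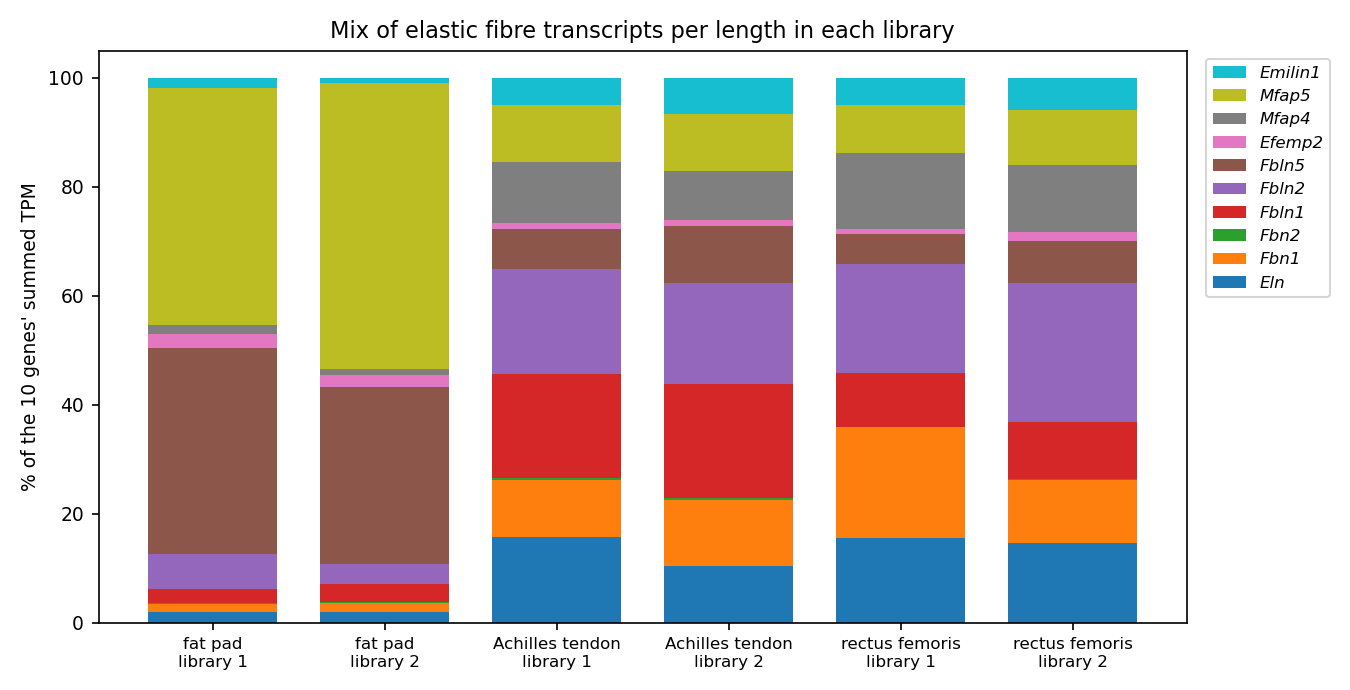
Share of each of the 10 genes in their summed deposited TPM (%), for each library, with the fat pad libraries first. Mfap5 and Fbln5 fill most of both fat pad bars, and Eln takes 2.00% and 1.9% of them, against 10.5% to 15.7% in the other 4 libraries.

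Most markers of the synovial lining differed between the fat pad and the other tissues, and those of fibroblasts and of smooth muscle are given with them. The 8 fibroblast markers summed to 15965 and 18171 CPM in the fat pad, 27591 and 18967 CPM in the tendon and 6972 and 6071 CPM in the muscle, with a median log2 fold change of 0.35 in the fat pad over the muscle and -0.22 over the tendon. Of the 8, 4 were called higher and 2 lower in fat pad than in muscle. Against the tendon, 2 were called higher and 3 lower, shares near the 27.2% and 31.4% of all genes. Within that list, Col1a2, a collagen chain, was lowest in the fat pad as Eln was, at 359 and 206 CPM in the fat pad, 13142 and 8623 CPM in the tendon and 1332 and 922 CPM in the muscle. Without Col1a2 the sums were lower in the tendon than in the fat pad. Dcn and Lum, small leucine-rich proteoglycans, were called higher in fat pad than in muscle. The 10 smooth muscle and pericyte markers summed to 1057 and 832 CPM in the fat pad, 3716 and 3893 CPM in the tendon and 4390 and 3964 CPM in the muscle, and 3 of the 10 were called lower in fat pad than in muscle, a share near the 29.6% of all genes, and 6 lower than in tendon, beside 31.4% of all genes. Desmin (Des), which skeletal muscle also makes, gave 1704 and 2709 CPM of that sum in the tendon and 3591 and 2936 CPM in the muscle. It gave 33.4 and 24.8 CPM in the fat pad, and without it the sums in the fat pad and the muscle overlapped. Acta2, a smooth muscle actin, was at 339 and 360 CPM in the fat pad, 537 and 153 CPM in the tendon and 113 and 176 CPM in the muscle. Myh11, a smooth muscle myosin, was lower in fat pad than in muscle instead. It had 30.7 and 19.3 CPM in the fat pad, 334 and 45.8 CPM in the tendon and 62.7 and 132 CPM in the muscle. Of the 10 markers, 0 were called higher in fat pad than in muscle and 0 higher than in tendon. The 6 synovial lining markers summed to 16778 and 18883 CPM in the fat pad, 1372 and 812 CPM in the tendon and 432 and 435 CPM in the muscle. Of the 6, 5 were called higher in fat pad than in muscle and 5 higher than in tendon, beside 29.8% and 27.2% of all genes. The other, Clic5, was called lower in fat pad than in muscle, at 211 and 113 CPM against 362 and 384 CPM. Most of the synovial lining sum in the fat pad was Prg4, which encodes lubricin, at 13470 and 16771 CPM. The part of these cell types in the results was not tested.

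Genes that act on elastic fibres were taken from 6 lists. Their counts are to be read beside the shares of all genes called, which were 29.8% higher and 29.6% lower in the fat pad over the muscle, 27.2% and 31.4% over the tendon, and 13.3% and 12.7% in the tendon over the muscle. Of 5 lysyl oxidases, the enzymes that cross-link tropoelastin, 0 were higher and 3 lower in fat pad than in muscle, and 0 were higher and 5 lower than in tendon. Against the muscle, Loxl1 (-0.59 ± 0.22, edgeR adjusted p = 0.0517) and Loxl3 (0.39 ± 0.22, adjusted p = 0.172) did not pass. Lox, the founding member, averaged 23.1 CPM in the fat pad, against 429 CPM in the tendon (log2 fold change -4.21 ± 0.29, edgeR adjusted p = 8.41e-05) and 51.4 CPM in the muscle (-1.15 ± 0.26, adjusted p = 0.0079). Loxl2 averaged 6.97 CPM in the fat pad, against 179 CPM in the tendon and 61.7 CPM in the muscle, with log2 fold changes of -4.68 ± 0.21 and -3.15 ± 0.20. All 5 were higher in the tendon than in muscle, with Lox at 3.06 ± 0.28. Latent TGF-beta binding proteins, relatives of fibrillin that tether the growth factor to microfibrils, were 4 of 4 lower in fat pad than in tendon and 4 of 4 higher in the tendon than in muscle. Against the muscle, Ltbp4 was lower in the fat pad (-1.98 ± 0.25) and Ltbp3 was lower (-0.76 ± 0.19), while Ltbp2 was higher (3.06 ± 0.40).

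Among 12 other microfibril, fibulin and EMILIN genes, 6 were higher and 2 lower in fat pad than in muscle, and 4 were higher and 6 lower than in tendon. The 2 lower over the muscle are a smaller share than that of all genes, and the 4 higher over the tendon are a share near it. Fbln7 averaged 239 CPM in the fat pad, against 43.7 CPM in the tendon and 17.6 CPM in the muscle. Hmcn2, a hemicentin, averaged 2.89 CPM in the fat pad, against 117 CPM in the tendon and 121 CPM in the muscle (log2 fold change over the muscle -5.39 ± 0.36, edgeR adjusted p = 5.92e-05). So the fibulin relatives, like the fibulins among the members, went in both directions. Of 9 ADAMTS and ADAMTS-like genes whose proteins are linked to fibrillin, 0 were higher and 2 lower in fat pad than in muscle, and 0 were higher and 6 lower than in tendon, the 2 lower over the muscle being a smaller share than that of all genes. The largest changes were those of Adamtsl3 over the tendon (-2.88 ± 0.25) and of Adamtsl2 over the muscle (-2.67 ± 0.33). In the tendon over the muscle, 4 of the 12 and 3 of the 9 were higher and 0 were lower. The 4 became 2 with DESeq2's size factors, 1 with the replicate block and 7 with total counts, and the 3 became 7 with total counts and 5 of 8 tested by the deposited TPM.

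Of 11 listed proteases known to cut elastin, 10 were tested, and 8 were higher and 0 lower in fat pad than in muscle, and 7 were higher and 1 lower than in tendon. The 1 lower was Mmp2, a gelatinase, which averaged 156 CPM in the fat pad, against 539 CPM in the tendon (log2 fold change -1.79 ± 0.31, edgeR adjusted p = 0.00235) and 198 CPM in the muscle (-0.34 ± 0.30, adjusted p = 0.356). Mmp9 over the muscle (0.42, adjusted p = 0.563) and Mmp14 (0.50, adjusted p = 0.0716) and Mmp12 (2.82, adjusted p = 0.0751) over the tendon did not pass either. Ctss, a cathepsin of macrophages and other phagocytes, averaged 699 CPM in the fat pad, against 27.4 CPM in the tendon (log2 fold change 4.67 ± 0.45, edgeR adjusted p = 0.000207) and 22.3 CPM in the muscle (4.97 ± 0.45, adjusted p = 0.000147). Elane, the neutrophil elastase, which is also in the neutrophil marker list, averaged 10.8 CPM in the fat pad, against 0.304 CPM in the tendon and 0.147 CPM in the muscle. It had 43 and 4 reads in the tendon and 12 and 0 in the muscle. Ctsg, another of the proteases called higher in both comparisons, had 4 and 0 reads in the tendon and 0 and 6 in the muscle. It passed the filter on low counts through the fat pad only, so its calls carry no weight of their own. Mmp12, called higher over the muscle, had 4 and 9 reads there. Neutrophil markers summed to 1803 and 247 CPM in fat pad libraries 1 and 2, against 0.81 to 6.4 CPM in the other 4 libraries, with S100a9, Ngp, Ltf and Mpo at 0 in tendon library 1. Macrophage markers summed to 1686 and 2750 CPM in the fat pad, against 218 to 319 CPM in the other 4. The part of these cells in the protease values was not tested. Of 7 chaperones and receptors of tropoelastin, 5 were higher and 1 lower in fat pad than in muscle, and 3 were higher and 1 lower than in tendon. Fkbp10, a chaperone of tropoelastin and collagen, averaged 73.7 CPM in the fat pad and 14.5 CPM in the muscle, and the integrin chain gene Itgav averaged 19.4 CPM in the fat pad, against 67.1 CPM in the tendon and 43.3 CPM in the muscle.

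Some list counts rested on single libraries. In the fat pad over the muscle, the 6 other microfibril genes called higher became 3 when fat pad library 2 or muscle library 1 was left out and 1 when muscle library 2 was, and the 8 proteases became 5 without fat pad library 1 and 5 without muscle library 1. The 5 chaperones and receptors became 3 without either muscle library. The 2 latent TGF-beta binding proteins called lower in fat pad than in muscle became 1 without fat pad library 1 or either muscle library, and the 2 ADAMTS-like genes became 1 without muscle library 2. With total counts as the scaling, 1 lysyl oxidase was higher and 2 were lower in fat pad than in muscle. Without tendon library 1, 2 other microfibril genes were higher and 2 lower in the tendon than in muscle. The calls of the 6 lists in the tendon over the muscle were mostly lost without either muscle library, as were those of all genes. By the deposited TPM, 2 of the 8 proteases tested, against 7 of 10 by counts, were called higher in fat pad than in tendon. Against the muscle, 5 of 8 were called higher by TPM and 8 of 10 by counts. The 5 lysyl oxidases and 4 latent TGF-beta binding proteins were all called lower in fat pad than in tendon, as by counts. Against the muscle, TPM called 4 of the 5 and 2 of the 4 lower. Of 13647 genes tested by TPM, 1608 were called higher and 7921 lower over the tendon. Over the muscle, 3030 were called higher and 5790 lower.

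The genes with a pattern nearest to that of Eln were sought among 7233 genes that averaged at least 20 CPM, by the Euclidean distance between log2(CPM + 1) values centred over the 6 libraries. Among members, Fbn1 was nearest (distance 0.322), and Eln and Fbn1 were the closest of all 45 pairs of members, followed by Fbln2 and Emilin1 (0.612) and by Fbln5 and Mfap5 (1.24). Outside the members, Tnxb, which encodes the matrix glycoprotein tenascin-X, was nearest (0.255), with 35.8 and 39.2 CPM in the fat pad, 440 and 303 CPM in the tendon and 209 and 265 CPM in the muscle. Dot1l (0.348), Kmt2b (0.444) and Rassf8 (0.473) were also near, of which Dot1l and Kmt2b encode histone methyltransferases. Dot1l had 9.70 and 13.2 CPM in the fat pad, 105 and 83.6 CPM in the tendon and 71.0 and 87.8 CPM in the muscle, and by the deposited TPM 1.72 and 2.41 in the fat pad, 41.1 and 37.1 in the tendon and 27.1 and 22.6 in the muscle. The low level in the fat pad was thus not limited to genes of the matrix. These distances describe 6 libraries and carry no test.

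Within the fat pad, no member differed by more than 2-fold between the libraries by counts. Fbln1 (log2 ratio of library 1 over library 2 of -0.81, 95% counting interval -0.90 to -0.71), Fbn1 (-0.80, -0.87 to -0.73) and Mfap5 (-0.72, -0.74 to -0.69) were lower in library 1. Fbn2 (0.62, 0.35 to 0.90), Emilin1 (0.55, 0.43 to 0.68) and Fbln2 (0.35, 0.30 to 0.39) were higher in library 1. The authors' deposited table gave log2 fold changes of like size for library 1 over library 2, at -0.82 for Fbln1, -0.81 for Fbn1 and -0.73 for Mfap5. Fat pad library 1 held more neutrophil and library 2 more macrophage marker RNA, as given above, and the part of these cells in the ratios was not tested. With 1 library on each side, these ratios have no replicate check.

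Within the tendon and the muscle, the deposited tables gave different ratios. For Mfap4 in the tendon, library 1 over library 2 was -2.10 by counts (-2.14 to -2.05, on 4651 and 18666 reads), against 0.02 by TPM and 0.26 in the authors' deposited table. For Fbn1 in the muscle it was -0.44 by counts, against 1.69 by TPM and 1.50 in the authors' deposited table, and for Eln in the muscle -0.51 by counts, against 1.00 by TPM. The sign differed between counts and TPM for 3 of the 10 members in the tendon (Fbn1, Mfap4 and Mfap5), for 3 in the muscle (Eln, Fbn1 and Fbln2) and for 1 in the fat pad (Mfap4, at 0.05 by counts). Between tissues, by contrast, the log2 fold change had the same sign by counts and by TPM for all 10 members in all 3 comparisons.

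**Figure D5:**
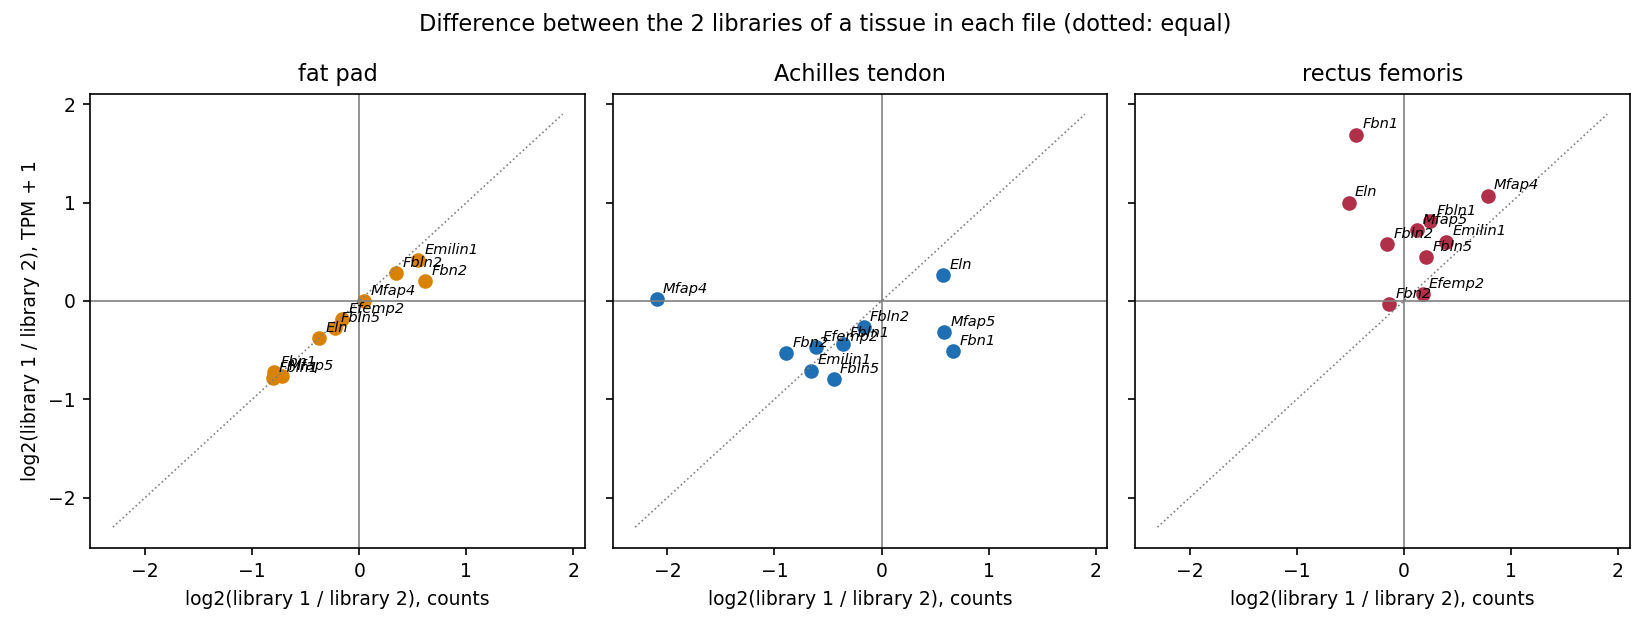
Log2 ratio of library 1 over library 2 for each of the 10 genes, by counts (x axis) and by TPM with a pseudocount of 1 (y axis), in the fat pad, the Achilles tendon and the rectus femoris. The fat pad points follow the dotted line of equal values, while Mfap4 in the tendon lies at -2.10 by counts and 0.02 by TPM, and Fbn1 in the muscle at -0.44 and 1.69.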

How the data were processed

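The authors deposited, for each tissue, whole-number counts of reads by Ensembl gene and, in another table, TPM of protein-coding genes. The TPM tables also hold, per the file headers, an adjusted and an unadjusted p-value, the −log10 of the p-value, a mean log2 CPM and a log2 fold change between the libraries of a tissue (library 1 over 2), of which only the fold change was used. Per the submitters' processing notes, RSEM 1.3.1, Bowtie2, DESeq2 1.4.5 and the build GRCm39 are listed, with no role given. How reads were counted, on which annotation and strand, was not given in the sources used here. A length-scaled or re-estimated value can differ from a count where isoforms or gene overlaps differ. Per-sample columns left unused numbered 0.

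Tables were joined by Ensembl ID. Of the gene symbols, 18924 were the authors' and 1740 from a names table, with 8 genes left without. The 16964 genes in all 3 count tables entered edgeR 4.0.16 in R 4.3.3 (TMM, filterByExpr, glmQLFit, glmQLFTest, 1 term per tissue), leaving 15856, with a biological coefficient of variation of 0.336. The SE is the log2 fold change over the square root of F. CPM are TMM-scaled, and TMM factors ran from 0.726 to 1.31. TPM were tested with limma 3.58.1 on log2(TPM + 1), over genes with at least 1 TPM in 2 libraries, so a TPM fold change is on that scale and understates low genes. Ratios within a library or a tissue have exact conditional binomial 95% intervals, which cover counting error only. Alternatives were DESeq2 1.42.0, other scalings and filters, the library number as a block, and each library left out, and the method was tested on simulated data.

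The members and gene lists were chosen with earlier results of these data known. Every member is named. Of each list at most 4 called genes per comparison are named, those with the largest absolute log2 fold change. Of genes like Eln the 5 nearest were taken, without predicted or unnamed genes, and 1 of them is not reported here. Marker genes with values, and genes of the other lists named as not called, and Mmp2, were picked from their lists after their values were seen. Fbn2 lies on a chromosome whose sequences were not used here.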

Additional observations from a re-analysis of the deposited data

How the results depend on the processing

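Of 450 recomputed values of the members' log2 fold changes between tissues (30 values under 15 alternatives), 400 kept their direction and their side of the threshold, 31 kept the direction and lost the call, 19 kept it and gained a call, and 0 changed sign. Fbln5 and Mfap5 in both comparisons of the fat pad, and Eln and Fbn1 lower in both, were called under all of them. With each library left out in turn, the number of members lower in fat pad than in muscle ran from 3 to 5, and the number higher in the tendon than in muscle from 0 to 7. The number of genes called in the tendon over the muscle, 4127 in the fit reported, ran from 19 to 4380 with each library left out, and was 6367 with total counts as the scaling. The cause was not tested, though a lone library is assumed to vary like the other groups. By TPM, 34.4% of the calls in the fat pad over the muscle, 16.9% over the tendon and 89.3% in the tendon over the muscle were higher, against 50.2%, 46.4% and 51.1% by counts. With the library number as a replicate block, 5 members and 2759 genes were called in the tendon over the muscle, and Fbln2 (adjusted p = 0.0568) and Mfap4 (0.0897) lost their calls. Libraries with the same number did not deviate together (correlations across genes of 0.002, -0.167 and -0.027), and no label pairs them. With 2 libraries a tissue, a difference of Efemp2's size between the fat pad and the tendon lay at the limit of what could be called, while every member had at least 53 reads in every library.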
